A study of Mus musculus with 11 samples.

Results

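The protein-coding genes of the cytosolic ribosome were followed in RNA from sorted mouse thymocytes. They were taken by symbol: every protein-coding gene named Rpl or Rps followed by a number, with Rplp0, Rplp1, Rplp2 and Rpsa, but without the Rps6k kinases and without symbols that mark a pseudogene. The rule found 86 of the 35975 genes in the files, of which 21897 code for protein. There were 43 genes of the large subunit, 31 of the small subunit, 3 of the stalk and 9 paralogs or genes that only share the name pattern. Of the 86 genes, 85 passed the filter on low counts, among 13780 genes tested in all. The gene that did not pass was Rpl10l.

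RNA-seq had been done on CD4-CD8- double-negative thymocytes of the DN2 and DN3 stages from C57BL/6J mice, to learn what changes when the RNA-binding protein Arpp21 is missing. There were 11 libraries in 4 groups, 3 of WT DN2 cells, 2 of Arpp21-/- DN2 cells, 3 of WT DN3 cells and 3 of Arpp21-/- DN3 cells. Arpp21-/- mice came from a single line in which exon 5 of Arpp21 had been cut out with 2 guide RNAs, which shifts the reading frame of the long isoform, while the protein of the short isoform was still made and was more abundant in the mutant thymocytes. No treatment was given. Mice of the study were between 6 weeks and 1 year old, and the age behind each library and whether replicates were separate animals are not given in the sources used here, so the p-values measure the spread between these libraries, which may be technical in part.

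A cytosolic ribosome holds a small subunit, which reads the mRNA, and a large subunit, which joins amino acids and carries the stalk that recruits elongation factors. Outside the stalk, each subunit needs its proteins in equal numbers. The mRNAs of nearly all ribosomal proteins begin with a run of pyrimidines, the terminal oligopyrimidine or TOP motif. Through it mTOR and Larp1 control their translation together. Thymocytes are known to be sensitive to single ribosomal proteins: Rpl22 is needed by αβ-lineage cells as they pass β-selection, and Rpl22l1 is its close paralog.

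The stretches around the annotated starts of 6 members show where runs of pyrimidines stand near these starts. They were chosen because the results turn on Rps27 and its relatives, on Rpl4 and on the Rpl22 pair. Each runs 15 bases before and 15 bases from the RefSeq start on GRCm38.p6, 5′ to 3′ on the strand of the gene, with runs of at least 6 pyrimidines in capitals; the annotated mRNA begins at base 16.
Rps27: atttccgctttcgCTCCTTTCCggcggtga
Rps27l: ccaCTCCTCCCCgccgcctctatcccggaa
Rps27rt: agaacttaTCCCTTgCTTTCCggcggtgac
Rpl4: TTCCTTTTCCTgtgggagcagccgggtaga
Rpl22l1: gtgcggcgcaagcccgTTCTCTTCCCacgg
Rpl22: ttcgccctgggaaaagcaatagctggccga
The stretches lie at chr3:90213634-90213663 on the minus strand for Rps27, chr9:66946071-66946100 on the plus strand for Rps27l, chr9:114982725-114982754 on the minus strand for Rps27rt, chr9:64173372-64173401 on the plus strand for Rpl4, chr3:28805493-28805522 on the plus strand for Rpl22l1 and chr4:152325711-152325740 on the plus strand for Rpl22. They hold the annotated start of transcription, so each covers the end of the promoter and the beginning of exon 1 and its 5′-UTR. The marked runs of Rpl4 and Rps27l lie before the annotated start and so outside the mRNA as annotated, and no run of 6 pyrimidines stands within these bases of Rpl22, for which RefSeq lists another start as well.

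Among the 66 members that had a RefSeq start, 34 (51.5%) had a run of at least 8 pyrimidines between 20 bases before and 30 bases after a start, against 21.5% of all 27025 genes with a start. The word CCGGAAG or its reverse complement CTTCCGG, the core of sites for ETS-family factors, was found on either strand within the 300 bases around a start in 26 members (39.4%), against 9.93% of all genes. A run on the gene's strand can overlap the word, since CTTCC is itself pyrimidine. These are matches of letters and no measurement of binding or of the true 5′ end.

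Libraries held between 14531762 and 63109504 estimated counts. Both extremes were Arpp21-/- libraries that stood apart from the rest: DN2 Arpp21-/- replicate 2, the deepest, and DN3 Arpp21-/- replicate 3, the shallowest. Their TMM scaling factors were 0.599 and 0.861, against 1.03 to 1.11 in the other 9 libraries, and short transcripts took a larger part of their counts. In DN2 Arpp21-/- replicate 2 the summed level of 8 DN2 markers was 418 CPM against 2434 to 3179 CPM in WT DN2, that of 4 hemoglobin genes was 1573 CPM against 398 to 489 CPM, and that of 7 myeloid genes was 357 CPM against 114 to 159 CPM. The myeloid sum came mostly from Tyrobp, Lyz2 and Fcer1g (203, 105 and 47.9 CPM). Csf1r and Itgam went the other way, at 0.0535 and 0 CPM against 1.38 to 4.14 and 2.26 to 6.63 CPM in WT DN2. The sum of 5 B cell markers was 63.8 CPM against 38.6 to 49.6 CPM, with nearly all of it from Cd79b and with Pax5 at 0 in every library. In DN3 Arpp21-/- replicate 3 the sum of 6 DN3 markers was 2658 CPM against 4220 to 4794 CPM in WT DN3. Il2ra, Cd3e and Notch3 were lower there than in any other DN3 library (527, 964 and 127 CPM). Ptcra and Rag2 were higher there than in any other library (605 and 200 CPM). Rag1 was at 236 CPM there and at 413 and 335 CPM in the other Arpp21-/- DN3 libraries. In WT DN3 it was at 867 to 973 CPM. The sum of the hemoglobin genes in this replicate was 159 CPM against 47.6 to 94.2 CPM in WT DN3. That of the myeloid genes, mostly Lyz2, was 47.6 CPM against 29.9 to 36.8 CPM. That of the B cell markers was 71.9 CPM against 61.2 to 66.04 CPM. Ptcra, which marks DN3, was between 1.00 and 11.7 CPM in DN2 and between 365 and 605 CPM in DN3, so this gene followed the label. Other markers did so less clearly in DN2 Arpp21-/- replicate 2. Kit was at 66.6 CPM there, against 446 to 553 CPM in the other DN2 libraries and 60.1 to 97.3 CPM in WT DN3. Cd44 was at 55.6 CPM, closer to DN2 (66.2 to 109 CPM) than to DN3 (5.37 to 13.1 CPM). Tcf7, Il7r, Gata3, Il2ra and Bcl11b were lower there than in any other library. Mpzl2, the last of the 8 DN2 markers, went the other way, with 40.3 CPM there against 0.843 to 31.4 CPM in the other DN2 libraries. Arpp21 itself was at 183, 125 and 136 CPM in WT DN2, 86.9 and 28.5 CPM in Arpp21-/- DN2, 386, 336 and 312 CPM in WT DN3 and 335, 221 and 142 CPM in Arpp21-/- DN3, but a sum over the gene does not check a deletion of exon 5. The part of these differences between libraries in the results was not tested. In bulk RNA, fewer cells of a type and less RNA per cell cannot be told apart.

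Ribosomal protein genes were among the most abundant in every library. On the TPM scale, which accounts for transcript length, 60 of the 86 had a mean of at least 1000 over all libraries, 20 were between 100 and 1000, 3 between 10 and 100 and 3 below 10. Their median was 1474 TPM against 12.1 TPM for all genes tested, and 42 of the 100 genes with the highest TPM were members.

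**Figure D1:**
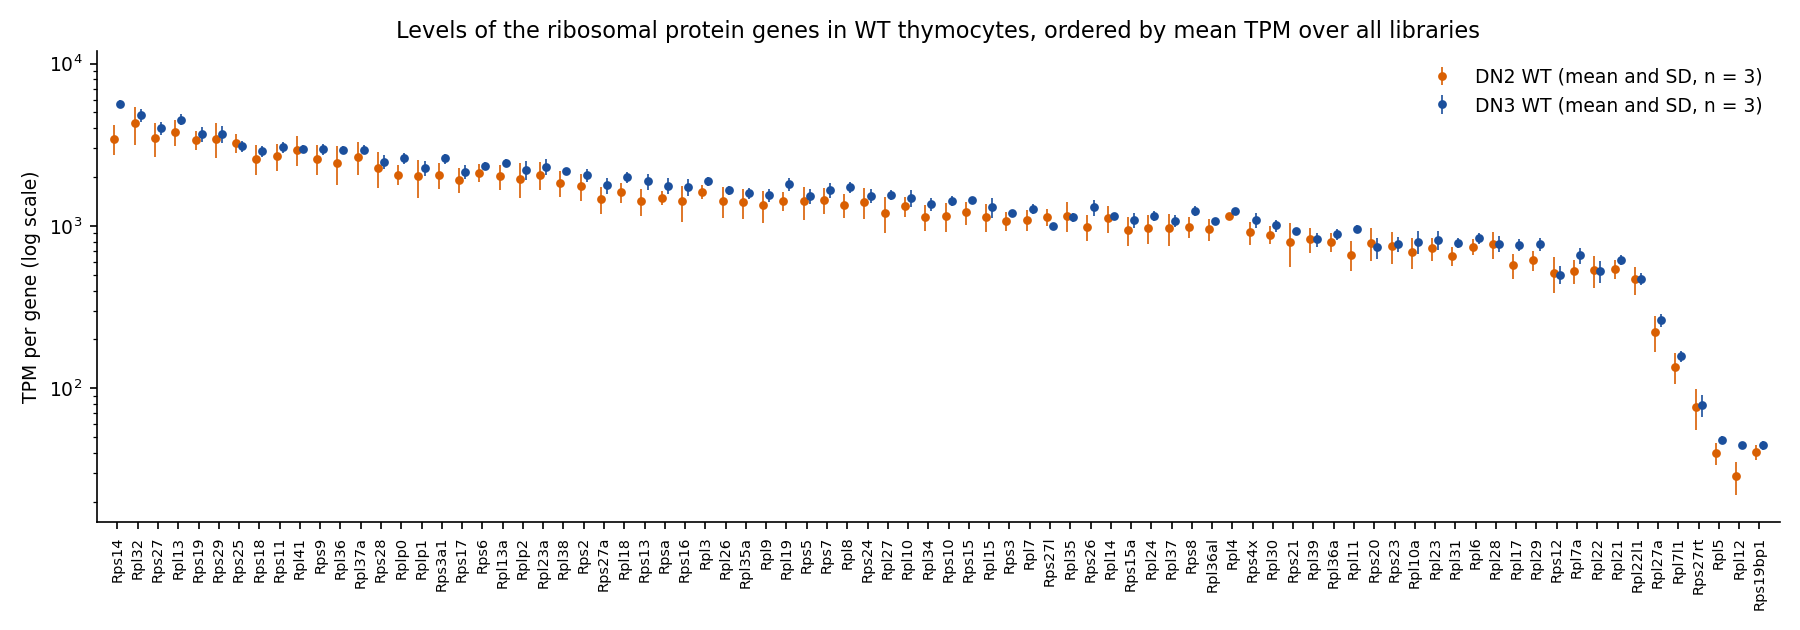
TPM per gene (log scale) of 82 of the 83 members with a mean of at least 10 TPM (1 is not shown), ordered by their mean over all libraries, in WT DN2 and WT DN3 thymocytes (points, means; bars, SD; n = 3 each). The order of the genes was nearly the same at both stages, from Rps14 and Rpl32 at the top to Rpl5, Rpl12 and Rps19bp1 at the bottom.

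Among the members with the highest means were Rps14, Rpl32, Rps27 and Rpl13. Rps14, a small subunit protein of the platform, had 3451 ± 706 TPM in WT DN2 and 5635 ± 321 TPM in WT DN3 (mean ± SD, n = 3 each, as for all values in this form). Rpl32 had 4290 ± 1133 and 4818 ± 451 TPM. Rps27, a zinc-finger protein of the small subunit, had 3491 ± 840 and 4018 ± 373 TPM, and Rpl13 had 3808 ± 700 and 4523 ± 348 TPM. In WT DN2 Rps14 was the lowest of these 4 and the SDs of neighbours in the order overlapped. In WT DN3 Rps14 was the highest, above Rpl32 by slightly more than both SDs together, while the SDs of the other neighbours overlapped.

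Other members of the small subunit filled the range below. Rps19, which is mutated in Diamond-Blackfan anemia, had 3397 ± 472 TPM in WT DN2 and 3675 ± 408 TPM in WT DN3. Rps29 had 3450 ± 833 and 3687 ± 436 TPM, and Rps28 had 2282 ± 561 and 2487 ± 246 TPM. Rps6, the target of the S6 kinases, had 2128 ± 275 and 2350 ± 142 TPM. Rps27a, which is made as a fusion with ubiquitin, had 1462 ± 274 and 1780 ± 202 TPM. Rpsa, which is also known as a laminin receptor, had 1491 ± 148 and 1774 ± 201 TPM. The X-linked Rps4x was lower, with 912 ± 146 and 1086 ± 120 TPM. In the order from Rps19 to Rps4x the mean was higher in WT DN3 for all 7 genes, and for none of them was the difference larger than the sum of both SDs.

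On the large subunit Rpl41, the smallest ribosomal protein, had 2943 ± 615 TPM in WT DN2 and 2987 ± 166 TPM in WT DN3. Rpl13a, which also acts in translational control during inflammation, had 2028 ± 359 and 2451 ± 125 TPM. Rpl38, known for its part in translating patterning genes, had 1841 ± 338 and 2171 ± 114 TPM, and Rpl3, which lies near the peptidyl transferase center, had 1627 ± 153 and 1889 ± 116 TPM. Rpl10, which is added late in assembly, had 1327 ± 189 and 1493 ± 182 TPM, and Rpl26, which lies at the exit tunnel, had 1429 ± 308 and 1665 ± 104 TPM. Rpl22 was one of the lower large subunit genes, at 536 ± 121 and 527 ± 80.8 TPM. The 3 stalk proteins were close to each other: Rplp0 had 2068 ± 292 and 2611 ± 196 TPM, Rplp1 had 2023 ± 537 and 2270 ± 248 TPM, and Rplp2 had 1957 ± 470 and 2214 ± 291 TPM.

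The 3 lowest members were paralogs that are known from other tissues. Rpl10l, a testis gene, was listed at 0 in 10 libraries and at 0.0691 TPM in 1 WT DN3 library. Rpl3l, a gene of striated muscle, lay between 0.0814 and 1.57 TPM, and Rpl39l, another testis gene, lay between 0 and 2.01 TPM. Rps19bp1, which encodes a nucleolar protein that binds Rps19 and no subunit protein, had 40.4 ± 4.31 TPM in WT DN2 and 44.5 ± 2.73 TPM in WT DN3.

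Ribosomal protein genes have many processed pseudogenes, and in the main transcripts of the members a median of 66.3% of the 31-base words also occurred in another gene. At least 50% of the words of 292 pseudogene copies were shared with a member. The files gave more TPM to the copies than to the gene itself for 4 members. For Rpl5, which binds Mdm2 together with Rpl11 and 5S RNA, the gene held a mean of 45.3 TPM and its copies 1021 TPM, and Rpl12 held 40.8 TPM against 1095 TPM in its copies. Rpl27a held 283 against 1051 TPM and Rps23 held 902 against 2210 TPM. The levels of these 4 genes are therefore uncertain, and with copies added Rpl12 lay between 699 and 1950 TPM and Rpl5 between 830 and 1481 TPM. Copies were found for 68 members, and for 57 of these they held less than 10% of the sum. Rps27 and Rps27rt shared 98.7% and 92.7% of their words with other genes, so the split between them is uncertain as well.

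Together the 86 genes took a share of the library that was alike in 9 libraries and about 2-fold larger in the other 2. The share of estimated counts was 3.92, 6.01 and 5.27% in WT DN2, 4.65 and 11.5% in Arpp21-/- DN2, 5.21, 6.14 and 5.22% in WT DN3 and 5.83, 6.18 and 11.6% in Arpp21-/- DN3. The high values were those of DN2 Arpp21-/- replicate 2 and DN3 Arpp21-/- replicate 3, and all others of these groups lay within or close to the range of WT. Group means were 5.07% ± 1.06 (SD, n = 3) in WT DN2, 8.10% ± 4.88 (SD, n = 2) in Arpp21-/- DN2, 5.52% ± 0.534 (SD, n = 3) in WT DN3 and 7.88% ± 3.24 (SD, n = 3) in Arpp21-/- DN3. The log2 ratio of Arpp21-/- to WT means was 0.51 in DN3 and 0.68 in DN2, and 0.12 and -0.12 without the 2 libraries. Between stages the log2 ratio of DN3 to DN2 was 0.12 in WT and -0.04 in Arpp21-/- cells, and in Arpp21-/- cells 0.37 without the 2 libraries. By TPM the share was 9.67, 14.1 and 12.9% in WT DN2, 11.5 and 19.3% in Arpp21-/- DN2, 13.3, 15.4 and 13.5% in WT DN3, and 14.96, 15.7 and 23.8% in Arpp21-/- DN3, so that the 2 libraries again stood above the rest.

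**Figure D2:**
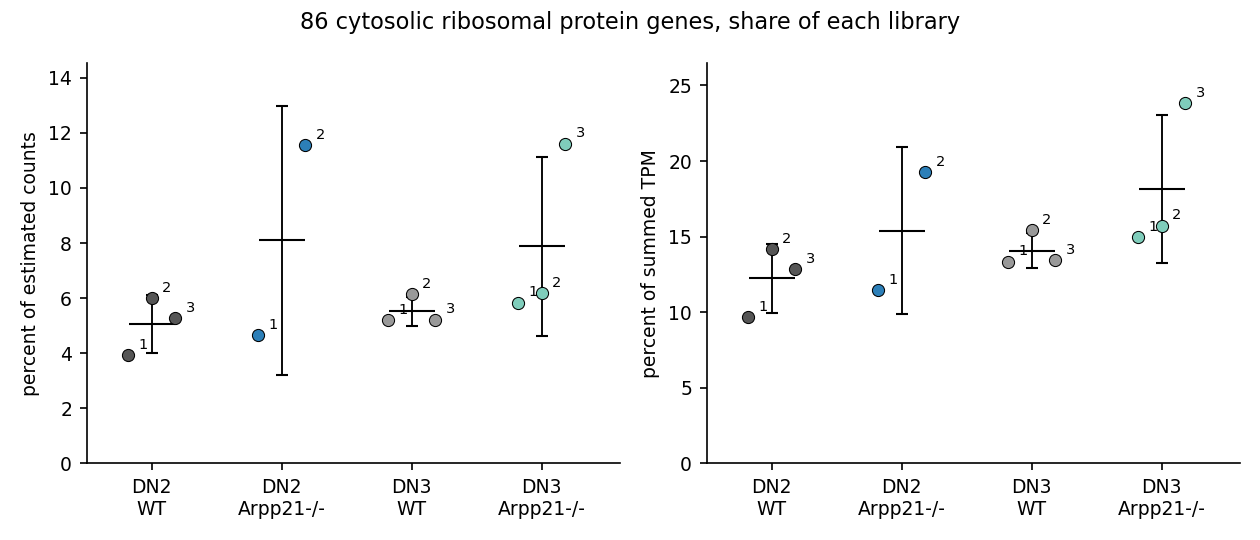
Percent of estimated counts (left) and of summed TPM (right) taken by the 86 genes in each library, by group. Points are libraries with their replicate number, and bars are the mean and SD; DN2 Arpp21-/- replicate 2 (11.5% of counts) and DN3 Arpp21-/- replicate 3 (11.6%) lie above the 9 other libraries (3.92 to 6.18%).

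The members varied together more than apart. Over the 83 members with at least 10 TPM, the median coefficient of variation of TPM between the 3 WT DN2 libraries was 18.9%, and it was 4.9% when each gene was taken as a share of the summed TPM of all members. In WT DN3 these values were 8.31% and 2.88%. Across genes, the log2 TPM of WT DN2 and WT DN3 had a Pearson r of 0.99 over the same 83 genes, which are not independent replicates and share libraries. The balance of the subunits was steady in WT: the summed TPM of the small subunit was 0.858, 0.857 and 0.870 of that of the large subunit with its stalk in WT DN2 and 0.862, 0.880 and 0.880 in WT DN3. It was 0.866 and 1.11 in Arpp21-/- DN2 and 0.867, 0.873 and 1.02 in Arpp21-/- DN3, with both values above 1 in the 2 libraries that stood apart.

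The 2 libraries were also set beside transcript length, whose part in the shift was not tested. Members are short, with a median of 751 bases against 2614 for all genes tested, and 68 of the 85 were under 1000 bases, as were 11.3% of all genes. In DN2 Arpp21-/- replicate 2 the log2 CPM of the members lay a median of 2.09 above the other DN2 libraries, with 83 of 85 above 0, and in DN3 Arpp21-/- replicate 3 a median of 1.39 above the other DN3 libraries, again with 83 of 85. Over all genes tested the medians were -0.13 and -0.08. Over all genes the median fell with length from 500 bases upwards, but not below: genes under 500 bases had medians of 1.13 and 0.43, those of 500 to 750 bases 1.58 and 0.75, those of 2000 to 3000 bases -0.07 and -0.04, and those of 5000 bases and over -1.67 and -0.94. The members had medians of 2.54 and 1.63 under 500 bases and of 2.25 and 1.499 from 500 to 750 bases, above the values of all genes of those lengths.

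**Figure D3:**
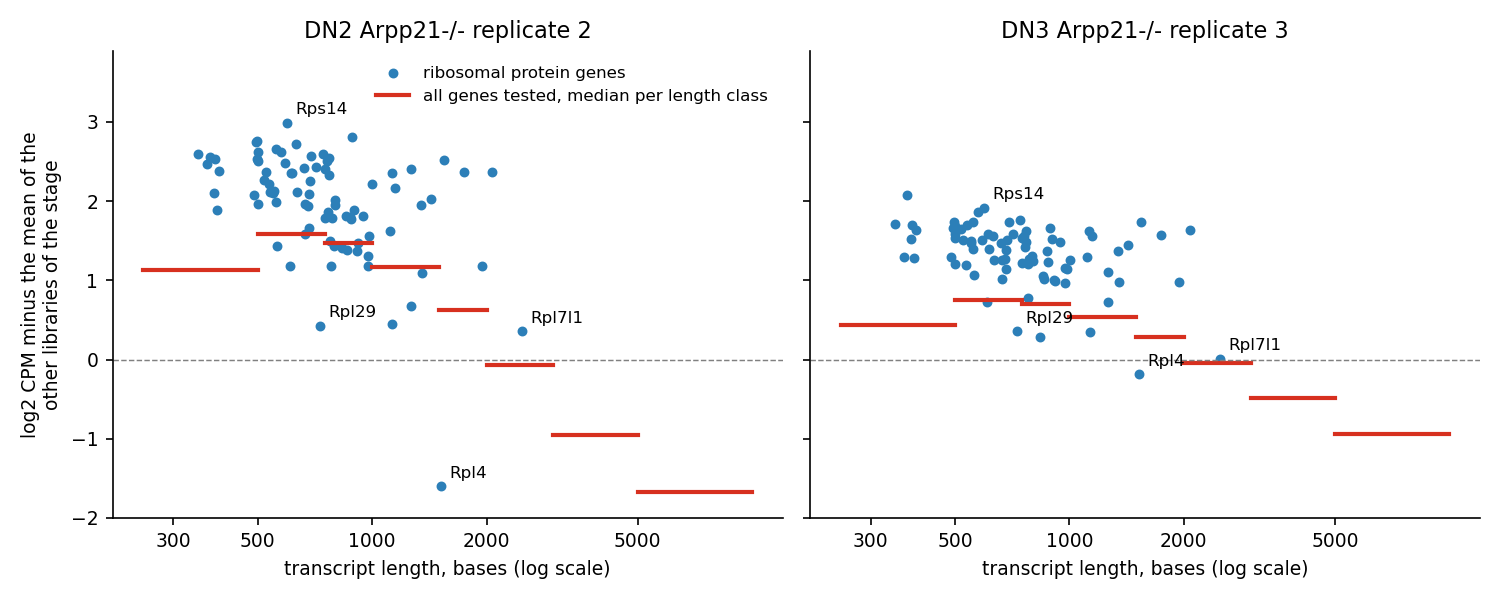
Difference in log2 CPM between a library and the mean of the other libraries of its stage, against transcript length in bases (log scale), for DN2 Arpp21-/- replicate 2 (left) and DN3 Arpp21-/- replicate 3 (right). Points are 83 members and red lines are medians of all genes tested in 8 length classes; most members lie above the line of their class, and Rpl4 is the lowest member in both plots.

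Within the members the same 2 libraries agreed gene by gene. Over 83 members with a mean of at least 10 CPM, the deviations in both libraries had a Pearson r of 0.90, and their correlation with log2 length was -0.47 and -0.44, against -0.54 and -0.48 over all genes tested; that with GC content was 0.01 and -0.12. These are descriptions across genes that share 2 libraries. Rpl4, which lines the exit tunnel, stood out, with 1203, 1157 and 1099 TPM in WT DN2 and 1097 and 135 TPM in Arpp21-/- DN2, and 1283, 1238 and 1184 TPM in WT DN3 and 1484, 1477 and 690 TPM in Arpp21-/- DN3. It was the only one of these 83 members whose log2 CPM in both libraries lay below the mean of the others of the stage, by 1.599 and 0.19. Rpl29 and Rpl21 lay 0.43 and 0.45 above in DN2 Arpp21-/- replicate 2, much less than Rps14 with 2.99.

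In DN3, the comparison of genotypes called no member at an adjusted p of 0.05 in edgeR's quasi-likelihood test, and 0.00726% of all genes. No member had an unadjusted p under 0.05, which 0.515% of all genes had as higher and 1.04% as lower in Arpp21-/- cells. DESeq2 and limma-voom with sample weights called no member either, while they called 0.121% and 0.856% of all genes. Log2 fold changes were positive for 83 of 85 members, against 49.3% of all genes, with a median of 0.67 against 0.00. The median was 0.62 for the large subunit, 0.79 for the small subunit and 0.69 for the stalk. Without the 2 libraries the median was 0.10, with 73 of 85 positive against 49.2% of all genes, no member was called, against 0.0343% of all genes, and only Rpl4 (log2 fold change 0.26, which was not called) had an unadjusted p under 0.05.

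The members at both ends of this comparison were mostly genes of low level. Rpl39l had the largest positive value and Rpl3l the lowest, and both had few reads. Rps27rt had 73.5, 92.6 and 70.0 TPM in WT and 102, 109 and 242 TPM in Arpp21-/- DN3 cells. The mutant values do not overlap those of WT, and the log2 fold change was 1.30 (SE 0.69), which was not called (adjusted p = 1). It was 0.36 without the 2 libraries. Rps14 came next with 0.99 (SE 0.71), and 0.07 without the 2 libraries. It had 5462, 6005 and 5438 TPM in WT and 6023, 6109 and 13407 TPM in Arpp21-/- cells, with 1 library far above the others. Rps19bp1 was at -0.03, and -0.18 without the 2 libraries, and Rpl7l1 also lay near 0, with 169, 144 and 158 TPM in WT and 159, 162 and 90.8 TPM in Arpp21-/- cells. The CPM of all Arpp21-/- libraries lay above all WT libraries for 4 members (Rps27rt, Rpl21, Rpl23a and Rps3a1, the last 3 named after their values were seen), as for 4.97% of all genes, and below for 1, Rpl3l, as for 5.57% of all genes.

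In DN2, no member was called between Arpp21-/- and WT by edgeR (0% of all genes were), by DESeq2 (0.276% of all genes) or by voom (0%). An unadjusted p under 0.05 was reached by 41 of 85 members, all higher in Arpp21-/-, against 12.1% of all genes in that direction, and none was lower at that p, as 2.6% of all genes were. Fold changes were positive for 84 members against 47.6% of all genes, with a median log2 value of 1.29 against -0.06, and the subunits had medians of 1.18 (large) and 1.55 (small). This rested on 1 of 2 libraries: when it and the DN3 library that stood apart were left out, the median was -0.15, and 3 of 85 members were positive against 47.7% of all genes. No member was called then, and 1, Rpl39l, had an unadjusted p under 0.05. When DN2 Arpp21-/- replicate 1 was left out instead, the library that stood apart was the only mutant of its stage. No count of calls is therefore given for that fit.

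Rps14 had the largest positive fold change in this comparison after Rpl39l. It had 2710, 4116 and 3527 TPM in WT DN2 and 3313 and 9933 TPM in Arpp21-/- DN2, and its log2 value between genotypes was 2.09 (SE 0.78; adjusted p = 0.336), and -0.13 without the 2 libraries. The lower mutant library lay among WT and the other lay far above it. Rps23, which sits at the decoding center, had 563, 874 and 817 TPM in WT and 642 and 1591 TPM in mutant cells, which came to 1.90 on the log2 scale (SE 0.73), and -0.21 without the 2 libraries. With its copies added it had 1803, 3061 and 2615 TPM in WT and 2247 and 5201 TPM in mutant cells, which is the same pattern at a higher level. Rpl4 was at -0.69 (SE 0.39, adjusted p = 0.413), and -0.10 without the 2 libraries, and it was the only member for which all Arpp21-/- libraries had a lower CPM than all WT libraries, as 8.28% of all genes did. No member lay above in both mutant libraries, against 7.52% of all genes.

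Neither WT DN3 nor WT DN2 holds one of the 2 libraries that stood apart. WT DN2 replicate 1, however, had the lowest share of all libraries, with 3.92% of counts and 9.67% of TPM. Without it the log2 ratio of the share of counts, DN3 to DN2, was -0.03 in WT. Between libraries of the same replicate number the share of TPM was higher in DN3 each time (13.3 against 9.67%, 15.4 against 14.1% and 13.5 against 12.9%), while the share of counts was higher for replicates 1 and 2 and lower for replicate 3. No member was called by edgeR, against 4.08% of all genes (1.86% higher and 2.22% lower in DN3), and DESeq2 and voom called none against 8.66% and 16.9% of all genes. Only Rpl39l, which was higher in DN3 and had few reads (adjusted p = 0.309), had an unadjusted p under 0.05, against 6.4% of all genes higher and 7.12% lower. Fold changes were positive for 65 of 85 members, against 51% of all genes, with a median log2 value of 0.06 against 0.01. Leaving out the 2 mutant libraries, which share the estimate of the spread, gave a median of 0.07, with 67 of 85 members positive against 52.4% of all genes. No member was called then, against 15.3% of all genes, and Rpl39l and Rps14 had an unadjusted p under 0.05. The CPM of all WT DN3 libraries lay above all WT DN2 libraries for 2 members, Rps14 and Rpl12, against 17.5% of all genes, and below for none, against 17.3%.

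**Figure D4:**
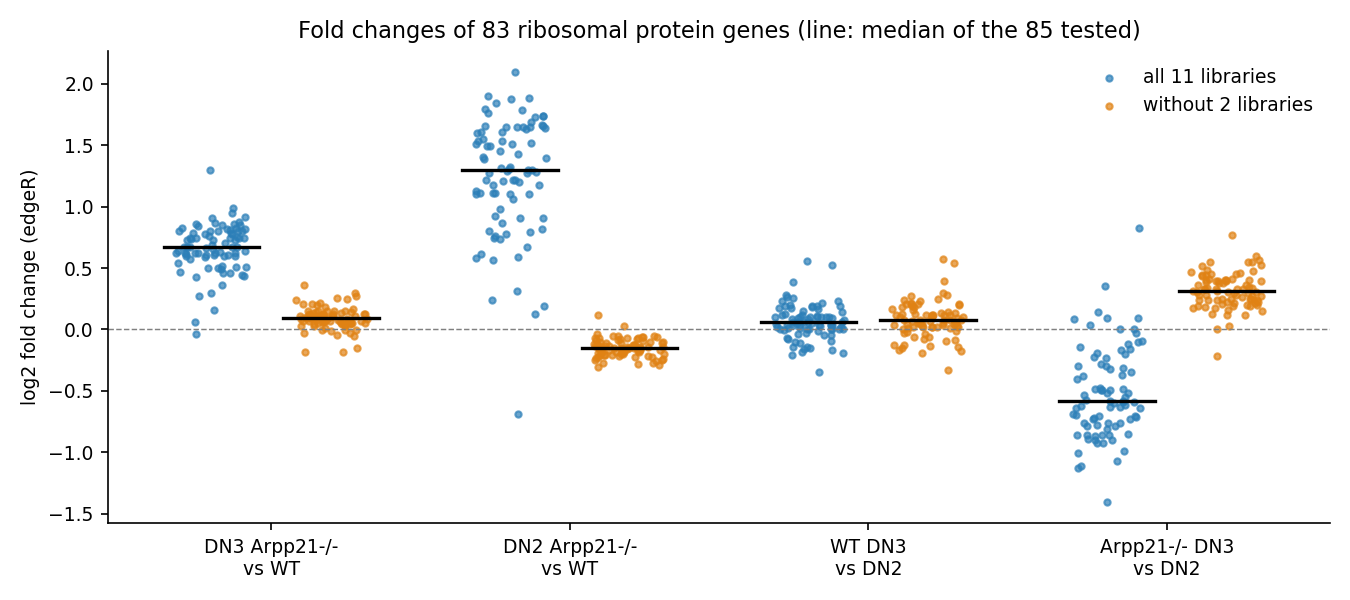
Log2 fold changes (edgeR) of 83 members in 4 comparisons, with all 11 libraries (blue) and without the 2 libraries that stood apart (orange). Points are genes, without Rpl39l and Rpl3l, and lines are medians over the 85 tested; medians of 0.67 (DN3) and 1.29 (DN2) between genotypes become 0.10 and -0.15, while that between WT stages is 0.06 and 0.07.

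Rps14 departed from most other members between the stages. Rpl12 did so only by the counts given to the gene itself, whose level is uncertain. With its copies added, Rpl12 had 699, 1239.5 and 973 TPM in WT DN2 and 961, 1231 and 973 TPM in WT DN3, which overlap. The share of the summed counts of the 86 genes held by Rpl12 had means of 0.0430% in WT DN2 and 0.0601% in WT DN3. That was a rise of 1.40 times, and the share of Rpl11 rose 1.24 times. In WT the log2 fold change of Rps14 was 0.56 (SE 0.70, adjusted p = 0.948) on the scale of all genes. As a share of the summed counts of the 86 genes it held 2.36, 2.46 and 2.34% in WT DN2 and 3.39, 3.26 and 3.39% in WT DN3, with no overlap and 1.40 times the mean. The Arpp21-/- libraries were at 2.41 and 4.58% in DN2 and at 3.33, 3.21 and 4.86% in DN3. Without the 2 libraries that stood apart, only replicate 1 of Arpp21-/- DN2 was left, at 2.41%, which lay within the range of WT DN2. The Arpp21-/- DN3 libraries left, at 3.33 and 3.21%, lay within or just below the range of WT DN3.

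When libraries were scaled to the summed counts of the members instead of by TMM, Rps14 had a log2 fold change of 0.49 between WT stages. The SE was 0.26 and the adjusted p 0.730 in the fit to all 11 libraries, in which no member was called, against 1.44% of all genes, and no member had an unadjusted p under 0.05. It was called without the 2 libraries, where it was the only member called, with an SE of 0.11 and an adjusted p of 0.0257, where 8.23% of all genes were called on this scale. With only the 6 WT libraries in the fit the adjusted p was 0.0549. In Arpp21-/- cells the log2 fold change on this scale was 0.44 (SE 0.17) without the 2 libraries, which edgeR did not call (adjusted p = 0.245), and 0.12 (SE 0.29) with them. This scaling was chosen after seeing the data.

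Rps27l, a paralog of Rps27 that is known as a p53 target, went the other way. It held 0.686, 0.579 and 0.640% of member counts in WT DN2 and 0.475, 0.441 and 0.491% in WT DN3, with no overlap, and 0.633 and 0.938% in Arpp21-/- DN2 against 0.385, 0.475 and 0.525% in Arpp21-/- DN3. On the scale of all genes its log2 fold change between WT stages was -0.35 (SE 0.62, adjusted p = 0.995), the lowest of all members, followed by Rps25 with -0.21 and Rps12 with -0.19. On the scale of the members' sum it was -0.44, with an adjusted p of 0.798 in all libraries and 0.160 without the 2, so it was not called by edgeR in any fit. Per 100 TPM of Rps27, Rps27l had 38.8, 30 and 31.5 TPM in WT DN2, 32.6 and 34.4 in Arpp21-/- DN2, 26.2, 23.3 and 25.4 in WT DN3 and 19.5, 27.3 and 21.4 in Arpp21-/- DN3. All DN2 libraries lay above all DN3 libraries in this ratio, those that stood apart included. A total of 17 of 85 members had a higher share of member counts in all WT DN3 than in all WT DN2 libraries, and 15 a lower share. Of all genes, 9.72% and 16.3% did so on the same scale.

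**Figure D5:**
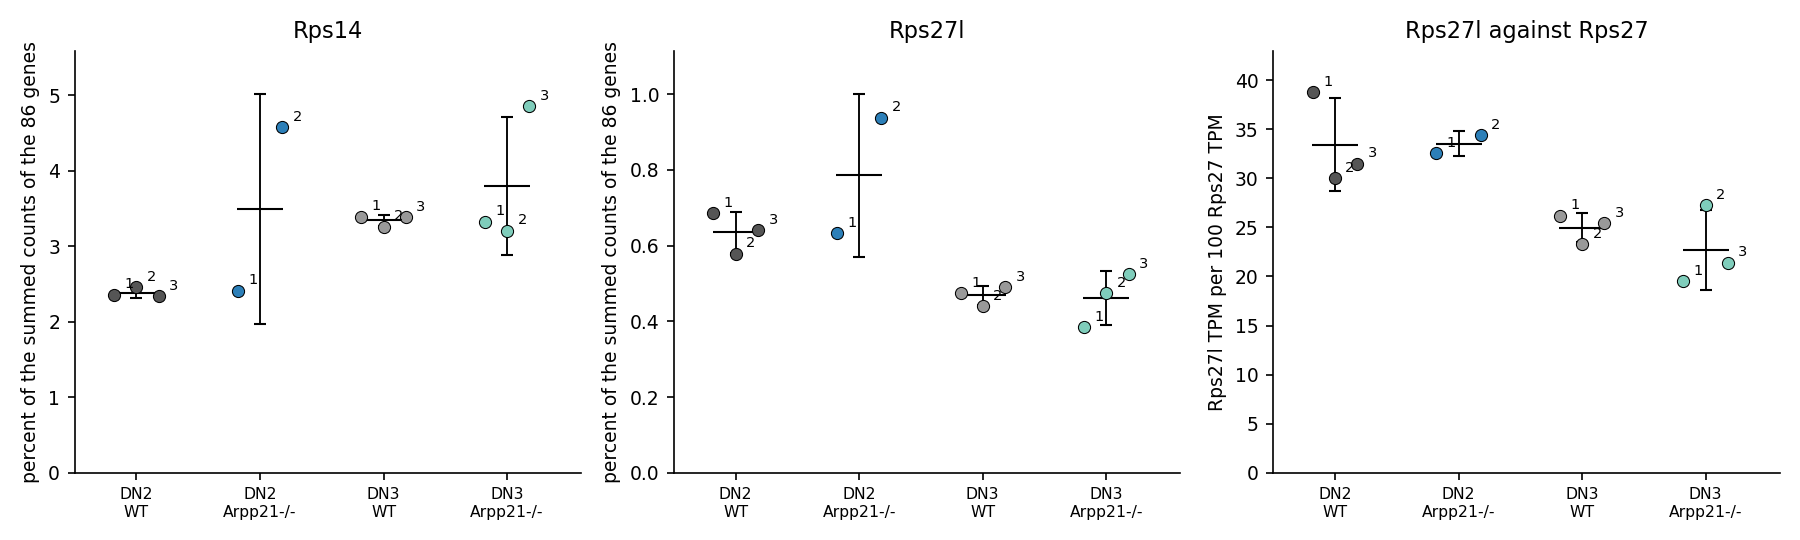
Share of the summed counts of the 86 genes held by Rps14 (left) and Rps27l (middle), and TPM of Rps27l per 100 TPM of Rps27 (right), in each library by group. Points are libraries with their replicate number, and bars are the mean and SD; Rps14 is at 2.34 to 2.46% in WT DN2 and 3.26 to 3.39% in WT DN3, and Rps27l at 0.579 to 0.686% and 0.441 to 0.491%.

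Among the other paralogs, Rpl22l1 kept its ratio to its parent within the spread of the libraries, while Rpl36al, Rps27rt and Rpl3l did not overlap between genotypes in DN3. Rpl3l, which had few reads, had 0.037, 0.0778 and 0.0396 TPM per 100 TPM of Rpl3 in WT DN3 and 0.0274, 0.0337 and 0.00348 in Arpp21-/- DN3. No share over other ratios is at hand. By CPM, 4.97% of all genes lay fully above and 5.57% fully below WT in DN3. Rpl22l1 had 87.8 ± 3.08 TPM per 100 TPM of Rpl22 in WT DN2 (n = 3), 87.3 ± 4.89 in Arpp21-/- DN2 (n = 2), 90.2 ± 5.79 in WT DN3 (n = 3) and 84.3 ± 8.62 in Arpp21-/- DN3 (n = 3). Rpl36al had 120 ± 5.95 per 100 TPM of Rpl36a in WT DN2, 123 ± 10.4 in Arpp21-/- DN2, 121 ± 3.13 in WT DN3 and 105 ± 1.59 in Arpp21-/- DN3, where 104, 107 and 105 lay below 121, 118 and 124 in WT. Rps27rt had 1.98, 2.09 and 1.79 per 100 TPM of Rps27 in WT DN3 and 2.24, 2.57 and 2.79 in Arpp21-/- DN3, again with no overlap, but both genes share nearly all their words. Rpl7l1, the longest of the members, had 12.9 ± 4.95 per 100 TPM of Rpl7 in WT DN2 and 12.4 ± 1.71 in WT DN3, and its lowest ratios, 5.63 and 4.63, were in the 2 libraries that stood apart.

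Between Arpp21-/- DN3 and Arpp21-/- DN2 cells, no member was called by edgeR and none had an unadjusted p under 0.05. Of all genes 4.32% were called (1.39% higher and 2.93% lower in DN3), and 7.44% higher and 12.5% lower had an unadjusted p under 0.05. DESeq2 and voom called no member against 11.6% and 1.02% of all genes. The median log2 fold change was -0.59 against 0.03 for all genes, with 10 of 85 members positive against 51% of all genes. Without the 2 libraries it was 0.31 with 83 of 85 positive against 53.1% of all genes, so the sign of the median turned. Only replicate 1 of Arpp21-/- DN2 was left in that fit. No member was called, against 6.15% of all genes, while Rpl29, Rpl4 and Rps14 had an unadjusted p under 0.05. Rps27l had the lowest log2 value, -1.40 (SE 0.68, adjusted p = 0.279), with 1103 and 2587 TPM in DN2 and 889, 1157 and 1861 TPM in DN3, and it was at -0.21 without the 2 libraries. Rps23 and Rpl38 came next with -1.13 (SE 0.72) and -1.11 (SE 0.65), and 0.24 and 0.12 without the 2 libraries. Rpl4 was at 0.83 (SE 0.39, adjusted p = 0.266), or 0.36 without the 2 libraries, and its DN3 libraries all had a higher CPM than its DN2 libraries, as 13.4% of all genes did.

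The interaction of stage and genotype, which asks whether the effect of genotype differs between DN2 and DN3, called no member and no gene (0%) by edgeR, and no member had an unadjusted p under 0.05, against 1.18% of all genes above 0 and 1.53% below. DESeq2 called 0.0771% of all genes and no member, and voom called none. The members had a median of -0.60 on the log2 scale, and 0.22 without the 2 libraries, against 0.01 and 0.00 for all genes.

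Genes that work with the ribosome were read beside the members, from lists chosen with earlier results known. Of 16 translation genes of the TOP class (elongation factors, Tpt1, Npm1, Pabpc1 and others), none was called in any comparison by edgeR, and DESeq2 called 1 between Arpp21-/- stages. The medians were 0.38 in DN3, 0.10 in DN2 and 0.05 between WT stages. Without the 2 libraries they were 0.16, -0.10 and 0.07, and 1 of 16 was positive in DN2 against 47.7% of all genes. These transcripts are longer, with a median of 1624 bases. Eef1a1, the elongation factor that brings tRNA to the ribosome, had 4879 ± 901 CPM in WT DN2 and 4999.8 ± 605 CPM in WT DN3. Without the 2 libraries Eef2, the translocation factor, was called higher in WT DN3 than WT DN2 by edgeR, with a log2 fold change of 0.50 (adjusted p = 0.0119). It was the only 1 of the 16 called there, beside 15.3% of all genes. Between Arpp21-/- stages the log2 fold change of Eef2 was 0.82. Only replicate 1 of Arpp21-/- DN2 was left in that comparison, so no p-value is given for it.

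With all libraries edgeR called no ribosome biogenesis gene and no regulator, and DESeq2 called 1 regulator between Arpp21-/- stages. Of 22 biogenesis genes 20 had a positive log2 fold change between WT stages, against 51% of all genes, with a median of 0.22, and Bop1, Polr1b and Nop2 were called higher in WT DN3 without the 2 libraries (log2 fold changes of 0.53, 0.49 and 0.60), which is 3 of 22 beside 15.3% of all genes. Among 14 regulators Myc, which drives ribosome production, had 416, 331 and 382 CPM in WT DN2 and 722, 636 and 656 CPM in WT DN3, with no overlap. Its log2 fold change between WT stages was 0.85 without the 2 libraries (adjusted p = 0.00232 by edgeR). Between Arpp21-/- stages it was 0.83, with only replicate 1 of Arpp21-/- DN2 left. Between WT stages Larp4 was called higher as well, with 0.56, and Eif4ebp1, the translation repressor that mTOR controls, lower, with -0.89 (adjusted p = 0.00729 by edgeR). With Myc these were 3 of 14 regulators, beside 15.3% of all genes. Between Arpp21-/- stages the log2 fold changes of Larp4 and Eif4ebp1 were 0.38 and -0.70 without the 2 libraries. With all 11 libraries none of these 6 genes and Eef2 passed between WT stages, with adjusted p values by edgeR of 0.258 for Eif4ebp1 and 0.316 for Bop1. Myc had 404 and 49.6 CPM in Arpp21-/- DN2 and 828, 621 and 351 CPM in Arpp21-/- DN3, lowest in the 2 libraries that stood apart.

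Modules of mitochondrial genes were set beside the members, without a test of the difference. In DN2, 77 of 78 mitochondrial ribosomal protein genes had a positive fold change between genotypes (median 1.16) and 73 of 76 tested subunits of oxidative phosphorylation did (median 1.51), beside 84 of 85 members (median 1.29). In DN3 the counts were 78 of 78 (median 0.37) and 72 of 76 (median 0.51), beside 83 of 85 (median 0.67). Without the 2 libraries 35 of 78 and 10 of 76 were positive in DN2 (medians -0.01 and -0.10), beside 3 of 85 members (median -0.15), and 37 of 78 and 42 of 76 in DN3 (medians 0.00 and 0.01), beside 73 of 85 members (median 0.10). Their transcripts had median lengths of 1225 and 725 bases. In the WT stage comparison their medians were 0.04 and -0.08, and no mitochondrial ribosomal protein gene and no subunit was called by edgeR with all libraries. Without the 2 libraries 1 and 2 were called, beside 15.3% of all genes. Cox4i2, a subunit isoform, was called lower in Arpp21-/- DN3 than DN2 by edgeR, which called no other gene of these lists in any of the 5 comparisons with all libraries, while DESeq2 called 2 subunits in each comparison of stages.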

How the data were processed

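Sorted thymocytes had been sequenced as 150-base read pairs after poly-A selection and full-length cDNA synthesis (SmartSeq V4 with Nextera), with the labels calling the input total RNA. The authors pseudo-aligned trimmed reads with kallisto 0.46 to the Ensembl 101 transcripts of GRCm38. The tables as deposited give, per transcript, estimated counts (expected counts, not normalized), TPM (counts per effective length, scaled to a fixed sum per library) and, as other units deposited by the authors, transcript length and effective length in bases. kallisto divides reads that match a gene and its pseudogene copies between them, which can lower the gene's value.

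Transcripts were joined to genes with GENCODE M21, of the same build, and 2686 of 119414, with at most 1.07% of the counts of a library, found no match and were left out. Estimated counts and TPM were summed per gene, and counts were rounded. Genes kept by filterByExpr (minimum count 10, minimum total 15) were tested in edgeR 4.0.16 with TMM factors and the quasi-likelihood F-test over 4 group means in all 11 libraries, with Benjamini-Hochberg adjustment over 13780 genes, and called where the adjusted value was under 0.05. No tool for this step is given in the sources used here. CPM are counts scaled by TMM-adjusted library size. SEs follow from the fold change and its F statistic. Copies are pseudogenes of which at least 50% of 31-base words occur in a member. RefSeq starts are those of GRCm38.p6. Depth was 14531762 to 63109504 estimated counts, and errors are between libraries.

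Alternatives were DESeq2 1.42.0, limma 3.58.1 (TPM with a pseudocount of 1 or 0.1) and voom with sample weights, other scalings, filters and length offsets, coding transcripts only, fits to 2 groups, replicate blocks and libraries left out. On simulated counts with the spread of these libraries edgeR recovered 28% of 4-fold changes in DN3, 14% in DN2 and 26% between WT stages, and at 2-fold 0%, 0% and 4%. Same-numbered WT libraries of DN2 and DN3 deviated together (Pearson r of 0.44, 0.13 and 0.30 over genes), but WT DN2 replicate 3 and WT DN3 replicate 2 also had an r of 0.15. The labels state no pairing, and these values do not settle it. Between genotypes in DN3 the same-numbered r were 0.35, -0.18 and 0.12. Between Arpp21-/- stages they were 0.64 and -0.61, where the 2 DN2 libraries must deviate in opposite ways. The members, lists, comparisons and alternatives were chosen with earlier results of these data known. Members named with values are those of a list of 33 symbols, any called, the 3 highest and 3 lowest fold changes in each comparison, and the 5 highest and 3 lowest by TPM; others were named after their values were seen. Of the cell marker lists, those of cells after β-selection, DP thymocytes and γδ T cells (3 of 6 genes found) had summed levels of 440 to 1192, 43.5 to 501 and 139 to 294 CPM. Protein sequences were not used here, and some genes that the rules would name are not reported here.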

Additional observations from a re-analysis of the deposited data

How the results depend on the processing

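Results on the members turned on DN2 Arpp21-/- replicate 2 and DN3 Arpp21-/- replicate 3. Without both, the median log2 fold change was -0.15 in DN2 and the log2 ratio of the share of counts -0.12. On limma's TPM scale the DN2 median was 0.25 with either pseudocount and 0.24 without the filter, and the DN3 median was 0.32 in each. With an offset for the trend with length the medians were 0.33 in DN3, 0.37 in DN2 and 0.14 between WT stages. Between Arpp21-/- stages the median turned from -0.59 to 0.07 with that offset and to 0.26 to 0.27 on limma's TPM scale. Scaled to the members' own sum, which sets their median near 0 by construction, the medians were 0.0014 in DN3 and -0.0134 in DN2, 0.0014 and -0.0218 with only 2 groups in the fit, and -0.0106 and -0.0109 without the 2 libraries; on that last scale 1 member, Rps14, was called between WT stages. Limma on log2(TPM + 1) called 2 members (Rps4x and Rpl3) higher in Arpp21-/- DN3 than DN2, and 3 with a pseudocount of 0.1 (Rps3a1 as well). The share of all genes that limma called there is not at hand, so these counts are no result about the members. In that comparison edgeR called 4.32% and DESeq2 11.6% of all genes. The cause of these last calls was not tested.

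With 1 library left out at a time, the number of members called was 0 to 79 in DN2, 0 to 40 between Arpp21-/- stages and 0 to 4 for the interaction, each time highest without DN2 Arpp21-/- replicate 1, and 0 in the other comparisons. The medians ranged from 0.10 to 0.91 in DN3, -0.14 to 2.01 in DN2, -0.11 to 0.22 between WT stages and -1.28 to 0.89 between Arpp21-/- stages. The log2 ratios of the share ranged from 0.12 to 0.69, -0.12 to 1.19, -0.03 to 0.26 and -0.55 to 0.76. Single genes whose direction turned were Rps14 in DN2 (-0.12 to 2.92), Rps23 in DN2 (-0.21 to 2.71), Rps19bp1 in DN3 (-0.179 to 0.0591), and between Arpp21-/- stages Rps27l (-2.19 to 0.50), Rps23 (-1.94 to 0.97) and Rpl38 (-1.89 to 0.73). Without the 2 libraries Rps14 and Rps23 were at -0.13 and -0.21 in DN2, and Rps23 and Rpl38 at 0.24 and 0.12 between Arpp21-/- stages; scaled to the members' sum as well, Rps14 was at -0.0342 in DN3 and Rps23 at -0.0651 in DN2.

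With the replicate number as a block no member was called in any comparison, and the medians were 0.57 in DN3, 1.22 in DN2, 0.11 between WT stages and -0.58 between Arpp21-/- stages. A replicate block of genotype and number gave 0.08 and -0.76 for the stages. The spread of the 2 libraries sets the precision: the common dispersion was 0.281 with them and 0.105 without.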

Other observations

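The pseudogene copies of the members kept a near constant proportion to the genes themselves. Per 100 counts of the 86 genes, the 292 copies held 5.32, 5.03 and 4.98 counts in WT DN2, 4.56 and 4.80 in Arpp21-/- DN2, 4.87, 4.87 and 4.82 in WT DN3 and 4.68, 4.92 and 4.93 in Arpp21-/- DN3. The libraries with the largest share of ribosomal protein counts, at 4.80 and 4.93, lay within the range of the other libraries.

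Transcripts annotated as retaining an intron held 2.12 to 2.86% of the members' counts, and those annotated for nonsense-mediated decay 1.88 to 4.34%. The lowest shares of the latter, 1.88 and 2.13%, were in DN2 Arpp21-/- replicate 2 and DN3 Arpp21-/- replicate 3, and the highest, 4.34%, was in WT DN2 replicate 1, whose transcript length less effective length, a measure of the fragments, was also the smallest of all libraries (120 bases against 142 to 164).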
